A study of Mus musculus with 8 samples.

Results

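The 34 genes described here encode proteins of blood coagulation and fibrinolysis. They were taken from a fixed list of gene names that holds the clotting factors, the fibrinogen chains, the contact system, the anticoagulants, the plasminogen system, the vitamin K cycle enzymes, the thrombin receptor F2r and thrombopoietin. All 34 were among the 14317 mouse genes of the deposited table, and all 34 reached the mean of 10 normalized read counts needed for testing, as did 14312 genes in all. Bulk RNA-seq was performed on whole liver from 8 female mice kept on a Western diet (WD), with 1 library per mouse. Con-Veh (n = 4) carried an empty vehicle pellet and Con-DHT (n = 4) a 10 mm pellet of dihydrotestosterone (DHT), the non-aromatizable androgen, each for 8.5 weeks. The labels give the genotype of both groups as WT, and the mice were 7 weeks old at implantation. The pellet is a systemic exposure and its effect is not limited to the liver. The comparison asks whether androgen exposure changes the hepatic transcripts of these genes in WD-fed females.

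Hepatocytes secrete most plasma clotting factors as zymogens, which proteases activate in sequence until thrombin cuts fibrinogen into fibrin. Several of the proteases need vitamin K-dependent carboxylation of glutamate residues before they can bind membranes. Plasmin dissolves fibrin, and circulating serpins and the protein C system hold the proteases in check. A few members, such as Vwf, Thbd, Tfpi, F8 and Plat, are made mainly by endothelial cells, so that in whole liver fewer cells of a type and less RNA per cell cannot be told apart. Fibrinogen is also a classical acute phase protein.

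Values are read counts on genes divided by a size factor for each library, called normalized read counts below, and log2 fold changes (Con-DHT minus Con-Veh) are on the log2(value + 1) scale with their standard error (SE). A gene was called when its adjusted P value, from limma with Benjamini-Hochberg adjustment over all genes tested, was at most 0.05. The libraries held 13123962 to 17815944 reads on genes. The 5 hepatocyte markers tested, none of them called by limma, edgeR or DESeq2 or with an unadjusted p under 0.05, had summed normalized read counts of 775298 to 1568354 per library in Con-Veh and 808705 to 982536 in Con-DHT. Libraries of the same group differed by more than sampling noise (chi-square per degree of freedom 19.2 to 61.6), and the 8 libraries were counted as 8 samples. Library preparation is not stated to keep strand, so reads from a member and from an antisense transcript cannot be told apart. The spike-in transcripts added to the RNA took 1.68% to 3.61% of reads.

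Con-Veh 1 and Con-Veh 2 stood apart from the other libraries. They held the 2 highest of the 8 values in 18 of the 34 members (52.9%), against 7.02% of all genes tested, and in 15 of 17 acute phase genes such as Saa1, Hp and Lcn2. The summed acute phase level ran from 186548 to 447699 in Con-Veh and from 140888 to 232328 in Con-DHT. The part of this difference between mice in the results was not tested. Results for the list as a whole, for the called members and for some others are therefore given with and without these libraries.

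Con-DHT livers held lower values for most of the list. Of the 34 members, 7 were called, 6 lower (F7, F10, Kng1, Kng2, Serpinc1 and Vkorc1) and 1 higher (F2r). Over all genes tested 7.21% were called, 4.6% higher and 2.61% lower in Con-DHT. The log2 fold change was below 0 in 29 of 34 members (85.3%), against 51.5% of all genes tested, with a median of -0.26 against -0.0081. The groups did not overlap in 19 members, 18 of them lower in Con-DHT and 1 higher, where 6.62% of all genes tested were lower and 8.49% higher without overlap. Without Con-Veh 1 and 2, a comparison added after seeing the data, 30 of 34 members had a log2 fold change below 0 with a median of -0.20, and F2r alone was called. In that comparison 51.8% of all genes tested were below 0, with a median of -0.011. The calls over all genes also fell, to 509 of 14230, from 1032 of 14312 with all libraries. Scaling by the spike-ins moved the median of all genes to 0.196 and that of the members to -0.05, with 20 members below 0 and F2r alone called. With spike-in scaling 22.2% of all genes tested were below 0 and 645 of 14314 were called. This scaling moved the log2 fold change of every gene by about the same amount. The spike-in factors also ran from 0.773 to 1.35 in Con-Veh and from 0.864 to 0.989 in Con-DHT, so the spread between mice changed as well. All 6 lower calls were lost, for example Kng1 (-0.49, limma adjusted P value = 0.75) and F7 (-0.33, 0.87). The median of the members stayed below that of all genes.

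**Figure D1:**
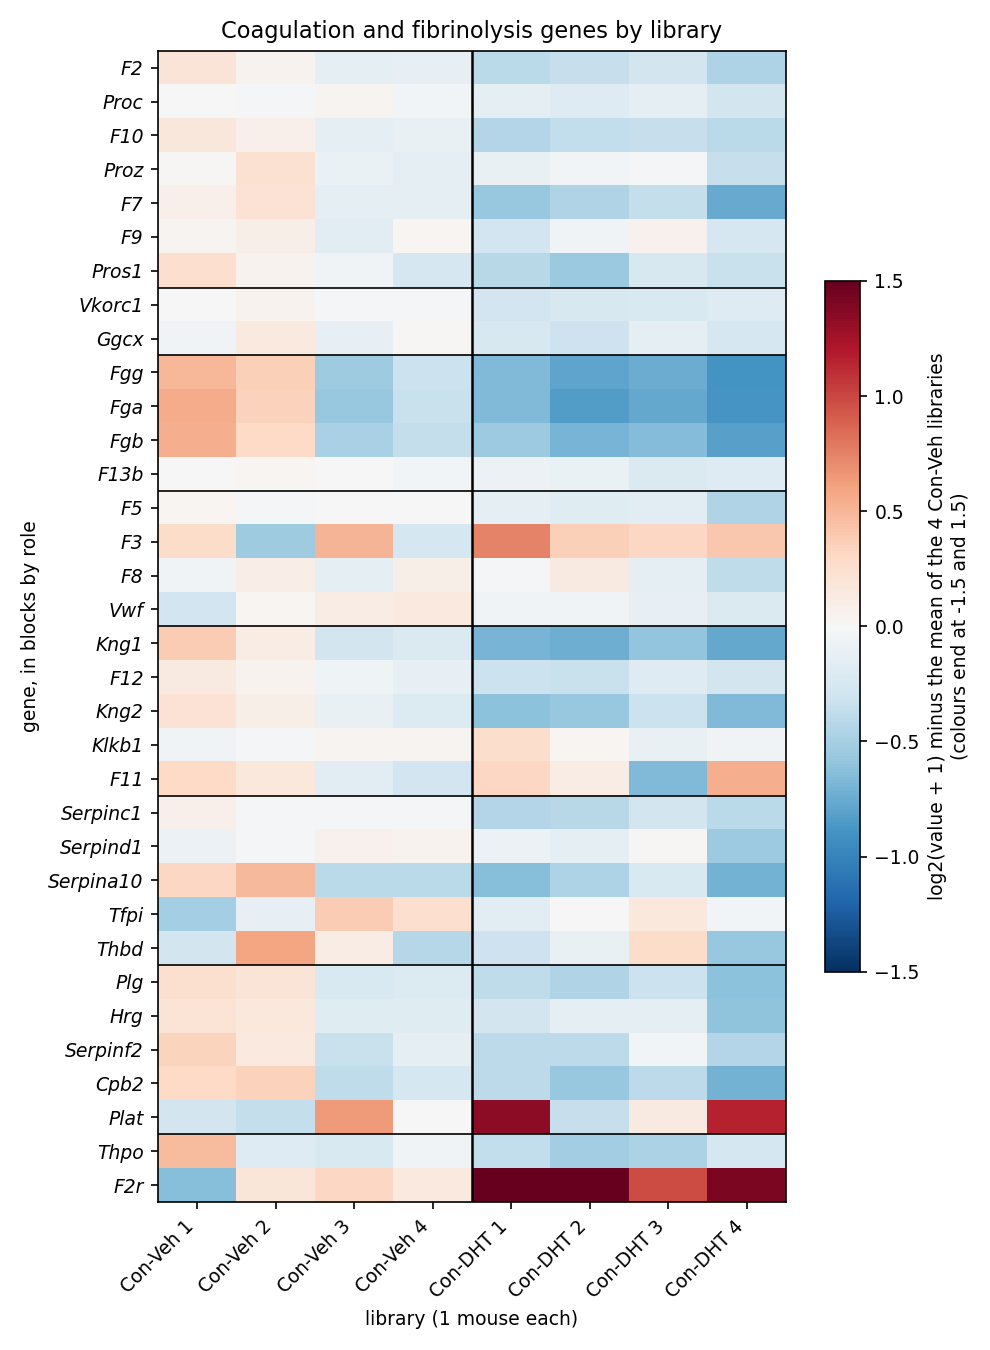
Heat map of the 34 members (rows, in blocks by role) in the 8 libraries (columns, 1 mouse each), coloured by log2(value + 1) minus the mean of the 4 Con-Veh libraries. Most rows are blue in Con-DHT, the fibrinogen rows are red in Con-Veh 1 and Con-Veh 2 only, and F2r is red in all 4 Con-DHT libraries.

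The fibrinogen chains were among the members with the largest differences, and these rested on which Con-Veh mice were compared. Fga encodes the alpha chain, Fgb the beta chain and Fgg the gamma chain of the hexameric clot protein, and the 3 genes are neighbours on chromosome 3 with no other protein-coding gene between them. The sequences upstream of the start sites of Fga, Fgb and Fgg are shown because the 3 transcripts moved together from library to library. That of F2r is shown because it was the only member called higher. Each is the 250 bases before the gene start from RefSeq (GRCm38.p6, an older build than the GRCm39 of the read counts), written 5′ to 3′ on the gene's strand. Capitals mark matches, on either strand, to a STAT-type element (TTCNNNGAA), an HNF1-type element (GTTAAT), a C/EBP-type element (TTGCNNAA) or an IL-6 response element (CTGGGAA).
Fga, chr3:83025903-83026152, plus strand: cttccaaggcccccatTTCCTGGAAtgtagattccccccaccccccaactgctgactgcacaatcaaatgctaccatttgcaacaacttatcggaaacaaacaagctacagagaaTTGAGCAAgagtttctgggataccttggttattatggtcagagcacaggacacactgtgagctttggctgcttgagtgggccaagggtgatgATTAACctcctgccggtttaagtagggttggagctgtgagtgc
Fgb, chr3:83049864-83050113, minus strand: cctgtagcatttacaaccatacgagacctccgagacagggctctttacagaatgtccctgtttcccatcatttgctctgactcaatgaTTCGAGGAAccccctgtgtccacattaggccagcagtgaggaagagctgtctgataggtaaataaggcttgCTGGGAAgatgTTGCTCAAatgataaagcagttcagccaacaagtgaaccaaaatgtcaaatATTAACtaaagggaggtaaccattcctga
Fgg, chr3:83007474-83007723, plus strand: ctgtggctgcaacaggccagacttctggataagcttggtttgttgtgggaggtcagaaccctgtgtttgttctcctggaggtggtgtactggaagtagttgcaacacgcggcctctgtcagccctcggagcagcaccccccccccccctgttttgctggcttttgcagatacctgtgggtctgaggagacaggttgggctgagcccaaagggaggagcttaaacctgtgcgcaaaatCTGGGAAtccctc
F2r, chr13:95618467-95618716, minus strand: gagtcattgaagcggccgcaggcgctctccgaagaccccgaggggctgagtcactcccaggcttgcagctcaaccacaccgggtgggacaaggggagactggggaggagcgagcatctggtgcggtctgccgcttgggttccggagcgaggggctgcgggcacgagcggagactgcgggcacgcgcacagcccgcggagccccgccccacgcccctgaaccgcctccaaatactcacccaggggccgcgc

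The Fgb window held all 4 motifs, starting at -162 (STAT-type), -91 (IL-6 response), -80 (C/EBP-type) and -29 (HNF1-type), counted in bases from the gene start. In Fga the STAT-type, C/EBP-type and HNF1 matches began at -234, -135 and -43, and Fgg held the IL-6 response match alone, at -13. F2r held no match. A window was found for 27 of the 34 members, and for Plg, Plat, Proc, Serpina10, Kng1, Thbd and Vwf none was used here. The STAT-type element occurred in 4 of the 27 windows (F9, Fga, Fgb and Pros1) and in 7.02% of 32851 RefSeq windows of the same length. The HNF1-type element occurred in 4 member windows (F13b, Fga, Fgb and Proz) and 6.43% of all windows. The C/EBP-type element was found in 8 (F11, F9, Fga, Fgb, Ggcx, Hrg, Klkb1 and Kng2) and 9.56%, and the IL-6 response element in 4 (F9, Fgb, Fgg and Tfpi) and 9.1%. An HNF4 element (CAAAGTCCA), also searched, was in no member window and in 0.384% of all windows. The F9 matches to the STAT-type and IL-6 elements begin at the same base and overlap. These are matches of letters and not shown sites of binding.

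Fga had normalized read counts of 108001, 93682, 49728 and 58216 in Con-Veh 1 to 4 and of 46413, 41175, 43102 and 39853 in Con-DHT 1 to 4. Fgb had 92237, 77996, 45171 and 49450 in Con-Veh and 43554, 38954, 40358 and 35890 in Con-DHT. Fgg had 81980, 74613, 40036 and 46578 in Con-Veh and 36649, 33631, 34557 and 31333 in Con-DHT. In each chain Con-Veh 1 and 2 stood far above the other 6 libraries, and Con-Veh 3 and 4 also stood above the highest Con-DHT value, Con-Veh 3 by less than Con-Veh 4. None was called by limma, although the unadjusted p was under 0.05 for each: the log2 fold change was -0.79 for Fga (SE 0.24, limma adjusted P value = 0.077), -0.68 for Fgb (SE 0.23, adjusted P value = 0.10) and -0.77 for Fgg (SE 0.22, adjusted P value = 0.067). Without Con-Veh 1 and 2 these were -0.34, -0.26 and -0.35, with adjusted P values of 0.30, 0.42 and 0.27. edgeR on the recovered read counts called Fga (adjusted P value = 0.048) and Fgg (0.044) but not Fgb (0.069), and DESeq2 called all 3. The spread also differed between the groups, the Con-Veh coefficients of variation being 36% for Fga, 34.2% for Fgb and 33.9% for Fgg, while Fgg in Con-DHT had 6.47%. F13b, the carrier subunit of the fibrin cross-linking factor XIII, ran from 2741 to 2887 in Con-Veh and from 2429 to 2658 in Con-DHT without overlap (log2 fold change -0.15, SE 0.06, limma adjusted P value = 0.18).

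The proportions of the 3 chains were steadier than their levels. Per length of exon, the Fga to Fgg ratio lay between 0.814 and 0.863 in Con-Veh and between 0.802 and 0.833 in Con-DHT (difference of log2 ratios -0.016, exact two-sided permutation p = 0.57). The Fgb to Fgg ratio was 0.501, 0.465, 0.502 and 0.472 in Con-Veh and 0.529, 0.515, 0.520 and 0.510 in Con-DHT, so that every Con-DHT mouse lay above every Con-Veh mouse. Its log2 difference was 0.097 (exact permutation p = 0.029, the smallest that 4 against 4 allows, and 0.11 after adjustment over the 4 ratios tested). The Fga to Fgb ratio differed by -0.112 on the log2 scale (exact permutation p = 0.057, adjusted 0.11), with 1.62 to 1.77 in Con-Veh and 1.56 to 1.64 in Con-DHT. No ratio passed after adjustment. Together the 3 chains took 1.80%, 1.61%, 0.899% and 0.995% of reads on genes in Con-Veh 1 to 4 and 0.751% to 0.891% in Con-DHT, and all members took 2.50% to 3.75% in Con-Veh and 2.07% to 2.34% in Con-DHT.

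**Figure D2:**
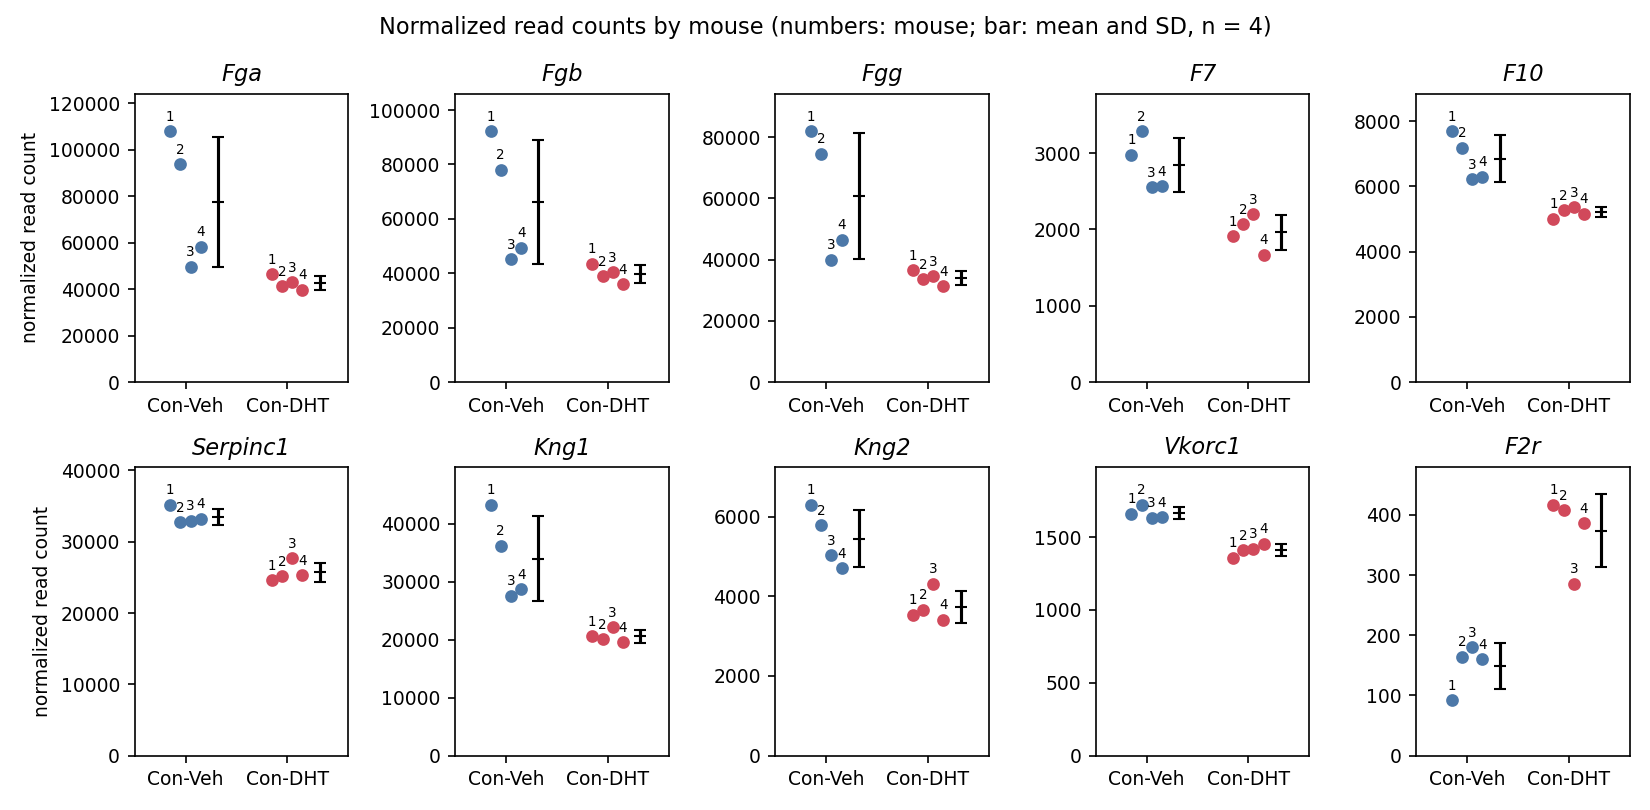
Normalized read counts of the 3 fibrinogen chains and of the 7 called members, with 1 point per mouse (numbered) and the mean and SD of each group (n = 4, axes from 0). Con-Veh 1 and 2 sit apart in the fibrinogen panels, Serpinc1 and Vkorc1 have tight groups, and in F2r all Con-DHT mice lie above all Con-Veh mice.

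The vitamin K-dependent proteins share a carboxylated membrane-binding domain, and all 7 had a log2 fold change below 0, with a median of -0.37, of which 2 were called. Among all genes tested 51.5% were below 0 and 2.61% were called lower. F7, the protease that binds tissue factor to start coagulation, had 2980, 3286, 2549 and 2568 normalized read counts in Con-Veh and 1910, 2066, 2199 and 1670 in Con-DHT. The groups did not overlap and their means differed by more than either SD, and F7 fell by 0.54 on the log2 scale (SE 0.11, limma adjusted P value = 0.017). It was called after leaving out each single library in turn (adjusted P values 0.019 to 0.048), although without both Con-Veh 1 and 2 the value was -0.39 with an adjusted P value of 0.13. F10, the protease that turns prothrombin into thrombin, had 7694, 7184, 6212 and 6303 in Con-Veh and 5011, 5277, 5366 and 5162 in Con-DHT. It fell by 0.39 (SE 0.09, limma adjusted P value = 0.023), was called in 4 of the 8 comparisons that left out a library, and had -0.27 (adjusted P value = 0.15) without Con-Veh 1 and 2. F7, F10 and Proz are neighbours on chromosome 8, and Proz, the cofactor of the inhibitor encoded by Serpina10, had overlapping groups (4797 to 5979 in Con-DHT, 5523 to 7099 in Con-Veh; log2 fold change -0.13, SE 0.10).

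The other vitamin K-dependent members were not called by limma or edgeR, while DESeq2 called F2, Proc and Pros1 (adjusted P values 0.002, 0.023 and 0.027). F2, prothrombin, had 43315, 39426, 34542 and 34880 in Con-Veh and 28575, 29712, 31196 and 27485 in Con-DHT. These did not overlap, at -0.37 on the log2 scale (SE 0.12, limma adjusted P value = 0.083). Pros1, protein S, the cofactor of activated protein C, ran from 950 to 1353 and from 769 to 962, with Con-DHT 3 just above Con-Veh 4 (log2 fold change -0.38, SE 0.11, adjusted P value = 0.069). Proc, protein C, ran from 9123 to 9631 in Con-Veh and from 7745 to 8524 in Con-DHT (-0.19, SE 0.07, adjusted P value = 0.15), a small difference between tight groups. F9, the protease lacking in haemophilia B, ran from 2530 to 3030 and from 2337 to 2982 (-0.13, SE 0.10, adjusted P value = 0.46). Proc and F9 had values above 0 (0.02 and 0.08) under scaling by the spike-ins, as did Proz (0.08), a setting that moved all genes up alike.

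Both enzymes of the vitamin K cycle were lower in every Con-DHT mouse than in any Con-Veh mouse, as were 6.62% of all genes tested. Vkorc1, the epoxide reductase that warfarin inhibits, had 1660, 1723, 1633 and 1635 normalized read counts in Con-Veh and 1359, 1409, 1422 and 1453 in Con-DHT. It fell by 0.24 on the log2 scale (SE 0.06, limma adjusted P value = 0.038), a decrease of 15.2% in the mean. The call did not survive leaving out any of the 8 libraries (adjusted P values 0.055 to 0.11) and was not made by edgeR (0.052) or with Mup-free scaling (-0.14, limma adjusted P value = 0.18). Mup-free scaling set the libraries to an equal total without the major urinary protein genes, in place of the size factors. DESeq2 called Vkorc1 (adjusted P value = 0.0039). Without Con-Veh 1 and 2 the log2 fold change of Vkorc1 was -0.21 (limma adjusted P value = 0.22). Ggcx, the gamma-glutamyl carboxylase, had 1043, 1202, 996 and 1094 in Con-Veh and 918, 873, 979 and 910 in Con-DHT (-0.23, SE 0.08, limma adjusted P value = 0.096).

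In the contact system 3 of 5 members were lower without overlap, against 6.62% of all genes tested. The protease pair on chromosome 8 was not lower without overlap. Kng1 and Kng2 encode kininogens, the bradykinin precursors that carry prekallikrein and factor XI, and lie next to each other and to Hrg on chromosome 16. They are close copies, so reads shared by both are uncertain. Kng1 had 43316, 36207, 27602 and 28744 in Con-Veh and 20598, 20145, 22181 and 19593 in Con-DHT. It fell by 0.70 (SE 0.15, limma adjusted P value = 0.020), a 39.3% lower mean, and was called in 4 of the 8 comparisons that left out a library. Kng2 had 6300, 5777, 5025 and 4699 in Con-Veh and 3543, 3661, 4317 and 3414 in Con-DHT and fell by 0.54 (SE 0.11, limma adjusted P value = 0.016), called in 7 of the 8. Without Con-Veh 1 and 2 the values were -0.45 (adjusted P value = 0.085) and -0.39 (adjusted P value = 0.12). Per length the Kng1 to Kng2 ratio was 6.90 to 8.63 in Con-Veh and 6.45 to 7.30 in Con-DHT (log2 difference -0.155, exact permutation p = 0.11, adjusted 0.15).

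F12, the zymogen that starts the contact pathway, ran from 10826 to 12976 in Con-Veh and from 9385 to 10376 in Con-DHT (log2 fold change -0.28, SE 0.09, limma adjusted P value = 0.081). Klkb1, prekallikrein, and F11, factor XI, are neighbouring paralogues. Klkb1 ran from 2007 to 2154 in Con-Veh and from 1926 to 2500 in Con-DHT (0.03, SE 0.09, adjusted P value = 0.87). F11 had 651, 591, 470 and 433 in Con-Veh and 656, 571, 333 and 772 in Con-DHT (0.07, SE 0.24, adjusted P value = 0.89), the Con-DHT mice spanning the whole Con-Veh range. The direction of both turned with the library left out.

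Among the anticoagulants 1 of 5 was called, where 7.21% of all genes tested were called. Serpinc1, antithrombin, the main inhibitor of thrombin and factor Xa, had 35200, 32731, 32922 and 33215 in Con-Veh and 24644, 25133, 27692 and 25278 in Con-DHT. It fell by 0.38 (SE 0.10, limma adjusted P value = 0.041), a 23.4% lower mean. Here Con-Veh 1 and 2 did not stand apart, and without them the log2 fold change was -0.37, but with 2 mice left in Con-Veh the adjusted P value was 0.17. It was called in 1 of the 8 comparisons that left out a library (adjusted P values 0.048 to 0.11), and not with Mup-free scaling (-0.29, adjusted P value = 0.086). Serpind1, heparin cofactor II, ran from 5323 to 5963 and from 3883 to 5747 (-0.19, SE 0.12, adjusted P value = 0.36).

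Serpina10, which inhibits factor Xa together with protein Z, had 3338, 3776, 2036 and 2025 in Con-Veh and 1718, 1941, 2300 and 1639 in Con-DHT. Con-Veh 1 and 2 were high and the rest overlapped (log2 fold change -0.51, SE 0.21, limma adjusted P value = 0.17; -0.11 without those libraries). Tfpi, the inhibitor of tissue factor, ran from 59.4 to 111 and from 75.5 to 94.9 (-0.01, SE 0.19, adjusted P value = 0.98). Thbd, thrombomodulin, the endothelial receptor that turns thrombin to protein C, ran from 50.5 to 103 and from 45.7 to 82.7 (-0.18, SE 0.25, adjusted P value = 0.73).

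Of the 4 cofactors and initiators none was called by limma, edgeR or DESeq2, and 1, F5, had an unadjusted p under 0.05 in limma. F5, the cofactor of factor Xa, had 10917, 10422, 10593 and 10751 in Con-Veh and 9688, 9387, 9524 and 7778 in Con-DHT, without overlap (log2 fold change -0.24, SE 0.09, limma adjusted P value = 0.15). The Con-Veh mice were tightly grouped and Con-DHT 4 was low. The other members of this group were low in whole liver and overlapped between the groups. F3, tissue factor, ran from 30.9 to 64.9 and from 56.1 to 76.5 (0.45, SE 0.24, adjusted P value = 0.29). F8, the cofactor lacking in haemophilia A, ran from 115 to 135 and from 96.8 to 138 (-0.11, SE 0.13, adjusted P value = 0.68). Vwf, the carrier of factor VIII, ran from 67.1 to 91.4 and from 70.7 to 79.5 (-0.11, SE 0.14, adjusted P value = 0.69).

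Of the 5 fibrinolysis members none was called by limma or edgeR, 2 (Plg and Cpb2) had an unadjusted p under 0.05 and were called by DESeq2, and 4 had their highest values in Con-Veh 1 and 2. Plg, plasminogen, had 61287, 59101, 43985 and 44842 in Con-Veh and 39820, 37853, 41465 and 33845 in Con-DHT. It did not overlap, at -0.44 on the log2 scale (SE 0.15, limma adjusted P value = 0.11; -0.22 without Con-Veh 1 and 2). Cpb2, the carboxypeptidase that slows fibrinolysis, had 4413, 4554, 2740 and 2971 in Con-Veh and 2716, 2417, 2717 and 2193 in Con-DHT (-0.52, SE 0.17, adjusted P value = 0.094; -0.19 without those libraries). In both genes Con-Veh 3 and 4 were close to the Con-DHT mice. Serpinf2, the plasmin inhibitor, ran from 10141 to 16170 and from 9407 to 12482 (-0.32, SE 0.15, adjusted P value = 0.24), and had -0.08 without Con-Veh 1 and 2. Hrg, a plasminogen- and heparin-binding plasma protein, ran from 16980 to 22216 and from 12720 to 17526 (-0.29, SE 0.14, adjusted P value = 0.25), and had -0.11 without those libraries. Plat, tissue plasminogen activator, had 14.3, 13.5, 27.95 and 17.4 in Con-Veh and 46.1, 13.6, 19.4 and 40.2 in Con-DHT (0.57, SE 0.40, adjusted P value = 0.44), and rested on 13 to 47 reads per library.

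F2r, the thrombin receptor PAR1, was the only member called higher. The log2 fold changes of F3, F11, Klkb1 and Plat were also above 0, and none of these was called. It had 92.3, 164, 180 and 160 normalized read counts in Con-Veh and 417, 407, 286 and 386 in Con-DHT, so the lowest Con-DHT mouse lay well above the highest Con-Veh mouse. The mean went from 149 ± 38.7 (SD, n = 4) to 374 ± 60.2 (SD, n = 4), with a log2 fold change of 1.35 (SE 0.21, limma adjusted P value = 0.0043). F2r was called under every setting tried, including each library left out in turn (log2 fold change 1.14 to 1.47, adjusted P values 0.0022 to 0.016) and without both Con-Veh 1 and 2 (1.12, adjusted P value = 0.0097). The value rested on 84 to 425 reads per library. Thpo, thrombopoietin, the hormone of platelet production, had 353, 222, 216 and 245 in Con-Veh and 196, 177, 183 and 212 in Con-DHT (-0.40, SE 0.15, adjusted P value = 0.15), and its groups did not overlap.

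**Figure D3:**
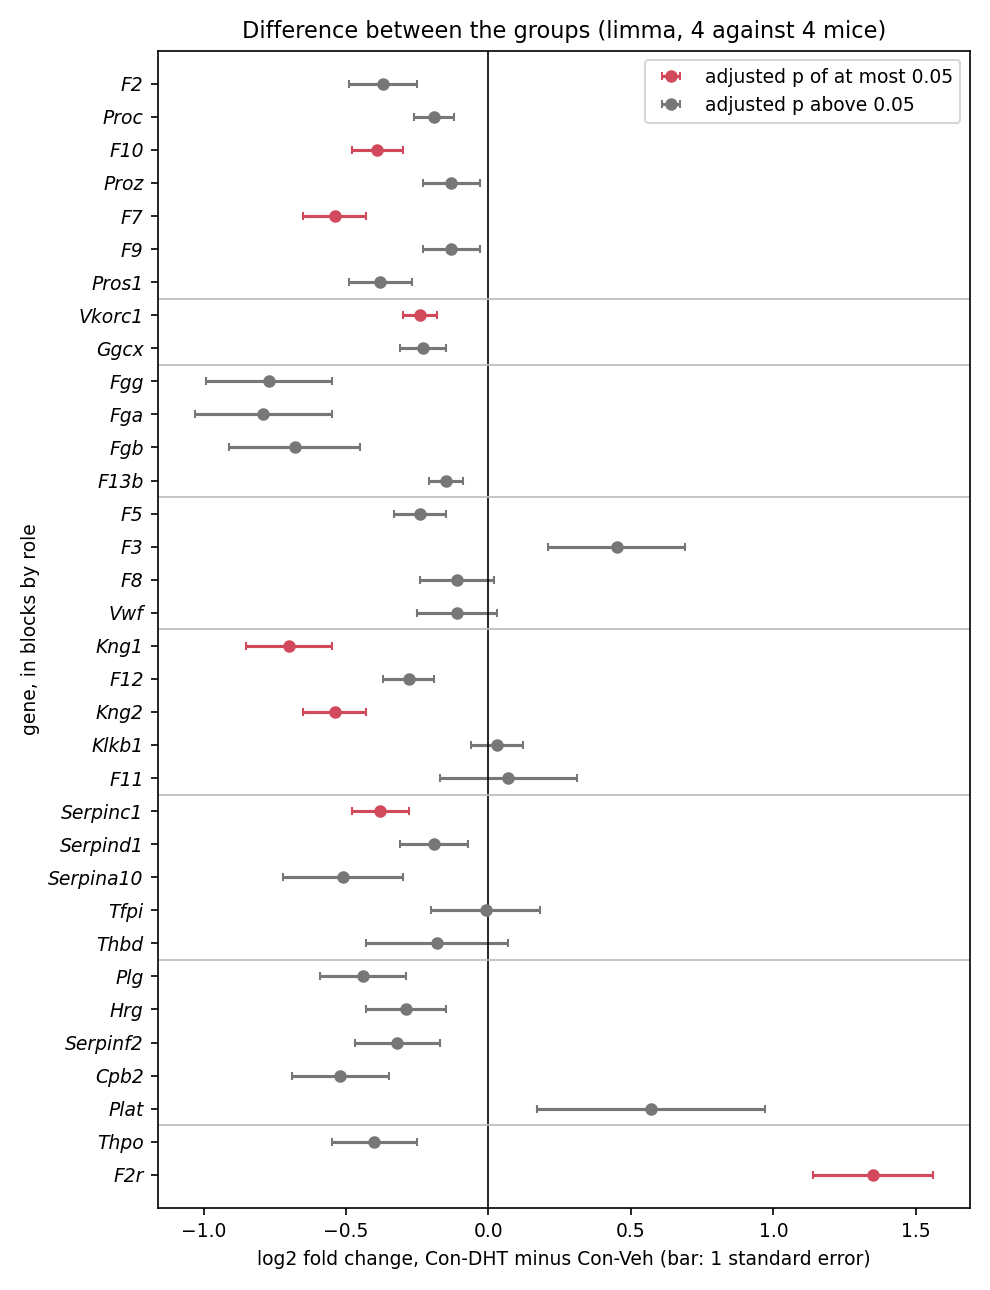
Log2 fold change of each member (x axis, Con-DHT minus Con-Veh, with a bar of 1 SE) in blocks by role (y axis), from limma on 4 against 4 mice. The 6 members called lower lie between -0.70 and -0.24, F2r lies at 1.35, and the fibrinogen chains have larger differences than most called members but wider bars.

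F2r is expressed in several non-hepatocyte cells of the liver. Markers of the non-hepatocyte cell types examined, whether or not these express F2r, moved with treatment in part. Of 8 endothelial markers, 2 were called lower, Stab2 (log2 fold change -0.55, SE 0.11, limma adjusted P value = 0.018) and Lyve1 (-1.26, SE 0.31, adjusted P value = 0.039). edgeR called 1 of the 8. Cdh5 (-0.37), Clec4g (-0.35), Pecam1 (-0.18) and Eng (-0.18) were not called, nor were Kdr (0.00) and Tek (0.07). The summed level of all 8 ran from 4199 to 4856 in Con-Veh and from 3433 to 3687 in Con-DHT. Within it the mean of Stab2 went from 1611 to 1109. Of 5 macrophage markers, 3 were called lower (Cd68, Vsig4 and Clec4f), with sums of 3066 to 3608 and 2312 to 2921. The share called lower over all genes tested was 2.61%. None of the 5 stellate cell and fibroblast markers was called by limma (1 with an unadjusted p under 0.05), edgeR or DESeq2, with sums of 1342 to 4687 in Con-Veh and 1793 to 2138 in Con-DHT. None of the 4 platelet markers tested was called by the 3 tools (1 with an unadjusted p under 0.05 in limma), the sums being 121 to 164 and 72.6 to 153. In limma and edgeR no call was made among 4 cholangiocyte markers (none with an unadjusted p under 0.05; 163 to 185 and 132 to 191), 3 red cell markers (2 under 0.05, and 1 called by DESeq2; 4339 to 10723 and 4037 to 8104) or 2 B cell markers (2 under 0.05; 43.4 to 61.6 and 26.5 to 37.8). Every marker tested had a value above 0 in every library. The part of these cells in the values of F2r, Vwf, Thbd, Tfpi, F8 and Plat was not tested.

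The levels of the members spanned a wide range, and in the liver the order was led by fibrinogen, prothrombin, plasminogen and kininogen. Per kb of exon of the principal transcript, Fgg had 35871 ± 12152 normalized read counts in Con-Veh and 20084 ± 1300 in Con-DHT (SD, n = 4 each), and Fga 29921 ± 10785 and 16481 ± 1102. F2 (19135 ± 2094 and 14709 ± 799), Plg (18971 ± 3323 and 13872 ± 1191), Kng1 (18592 ± 4000 and 11291 ± 609) and Fgb (17379 ± 5946 and 10417 ± 835) came next by the mean over the 8 mice, then Hrg, Serpinc1, Proc and F12. At this end 22 members lay at or above percentile 90 of all genes. At the other end Tfpi, F3, Thbd, F8, Plat and Vwf lay below percentile 50, Vwf lowest with 9.37 ± 1.24 per kb in Con-Veh and 8.63 ± 0.470 in Con-DHT.

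Many neighbours in that order could not be ranked. Of 33 neighbouring pairs, the ranges over the 4 mice overlapped in 24 in Con-Veh and in 21 in Con-DHT. Compared within each mouse, which removes the shared differences between mice, the order was the same in all 4 mice for 16 pairs in Con-Veh and 20 in Con-DHT, a comparison added after seeing the data. Fgg lay above Fga in every mouse of both groups, whereas F2 lay above Plg in 2 of 4 Con-Veh and 3 of 4 Con-DHT mice. Plg lay above Kng1 in 3 of 4 and 4 of 4. F2r changed its place, from below Thpo in Con-Veh (44.7 ± 11.6 per kb against 107 ± 26.5) to above it in Con-DHT (112 ± 18.1 against 79.5 ± 6.44), in 4 of 4 mice of each group. Exon lengths came from an older annotation than that of the counts, so levels per kb are approximate.

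**Figure D4:**
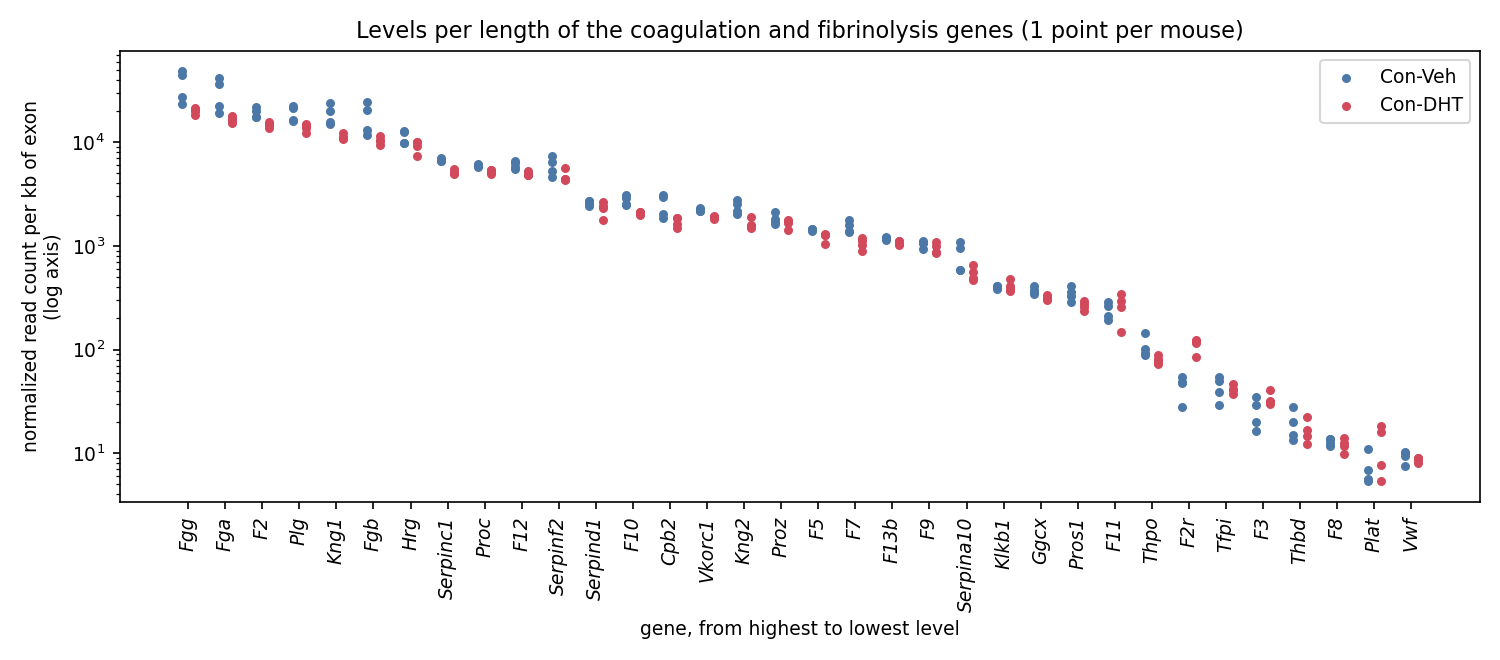
Normalized read count per kb of exon (log axis) of each member, from the highest to the lowest mean level, with 1 point per mouse. The Con-DHT mean lies below the Con-Veh mean in each of the 22 highest genes, and F2r is the only gene whose Con-DHT points all lie above its Con-Veh points.

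Of 30 further genes of haemostasis (platelet receptors, secretion factors, the urokinase and annexin systems and other inhibitors), 23 were tested and 3 were called, all higher in Con-DHT. Of all genes tested, 7.21% were called, made up of 4.6% higher and 2.61% lower. Anxa2, which binds plasminogen and its activator at the cell surface, had 194, 190, 180 and 220 normalized read counts in Con-Veh and 365, 392, 349 and 437 in Con-DHT. It rose by 0.97 on the log2 scale (SE 0.10, limma adjusted P value = 0.00056). Serpine2, protease nexin-1, an inhibitor of thrombin and plasminogen activators, had 82.5, 49.2, 33.9 and 40.9 and then 103, 117, 109 and 169 (1.31, SE 0.27, adjusted P value = 0.016). Vkorc1l1, the paralogue of Vkorc1, had 495, 499, 550 and 512 in Con-Veh and 600, 648, 595 and 621 in Con-DHT (0.26, SE 0.07, adjusted P value = 0.049), so that the pair differed in opposite directions. The call of Vkorc1l1 was lost on leaving out any library but Con-Veh 3. In this list 13 of 23 genes had a log2 fold change below 0, against 51.5% of all genes tested. The median was -0.13 against -0.0081. Serpina5, Serpinb2, F2rl1, F2rl2, F2rl3, Gp1bb and Mmrn1 were not analysed here.

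The acute phase list, to which fibrinogen belongs by its biology but not by this count, had a log2 fold change below 0 in 17 of 17 genes and a median of -0.93. Below 0 were 51.5% of all genes tested, and 2.61% were called lower. Only Cp, ceruloplasmin, was called, with 19156, 18002, 14630 and 15640 in Con-Veh and 11928, 12020, 12525 and 13109 in Con-DHT (fell by 0.44, SE 0.10, limma adjusted P value = 0.032). Lcn2, for example, had 1674, 2708, 144 and 168 in Con-Veh and 58.9, 114, 343 and 45.7 in Con-DHT, so Con-Veh 1 and 2 again set the group mean. Without these libraries Cp had -0.29 with an adjusted P value of 0.20.

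The number of members called moved with the test and the libraries, while F2r stayed. edgeR called 8 members where it called 7.15% of all genes tested, and DESeq2 called 16 where it called 11%. The limit on false calls in simulated data was not applied to DESeq2, so its added calls were not held to that limit. The DESeq2 Wald test was the one the study itself used. DESeq2 added the 3 fibrinogen chains, F2, F12, Plg, Proc, Pros1 and Cpb2. Leaving out Con-Veh 2 left 2 called members, F7 and F2r, and leaving out Con-DHT 1, 2 or 4 left 3 in each case. Over all genes, limma called 649 without Con-Veh 2 and 651, 653 and 727 without Con-DHT 1, 2 and 4. With all libraries it called 1032.

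**Figure D5:**
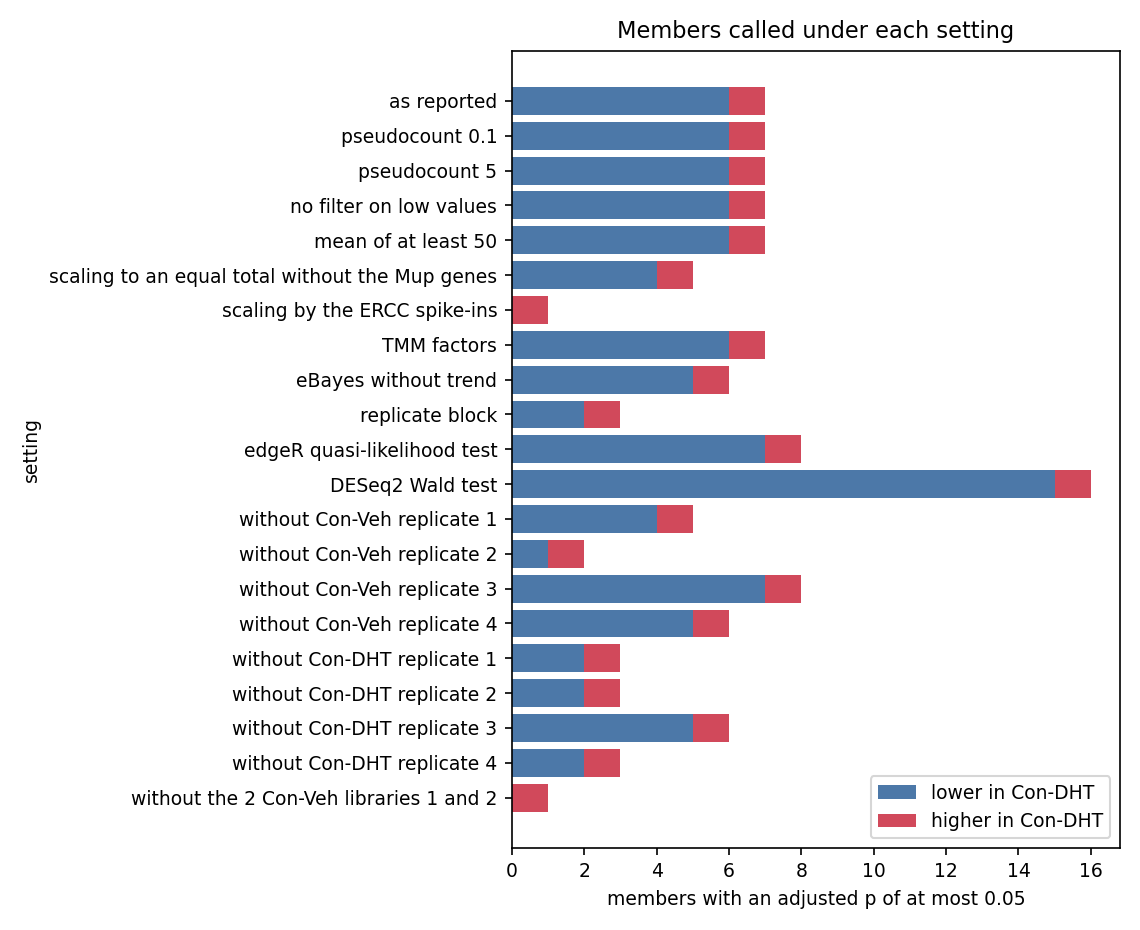
Number of members with an adjusted P value of at most 0.05 (x axis), lower and higher in Con-DHT, under each setting (y axis). The count runs from 1 (spike-in scaling, or without Con-Veh 1 and 2) to 16 (DESeq2), and 1 member, F2r, is higher in every setting.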

How the data were processed

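Liver RNA of 8 mice was sequenced, 4 in each group. Per the labels, reads were processed with Trimmomatic, STAR, featureCounts from Subread and DESeq2 on GRCm39. The authors deposited signal values, that is, gene counts divided by a DESeq2 size factor for each library. Dividing each library by the value of 1 read returned whole reads for 100% of values (tolerance 0.01), so depth was known and count tests could be run. The lengths and upstream sequences come from GENCODE and RefSeq annotation of GRCm38, matched by gene name, and no coordinates were converted.

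The main test was limma 3.58.1 with trend (R 4.3.3) on log2(value + 1) for genes with a mean of at least 10, comparing Con-DHT with Con-Veh over all 14312 genes, since the values are normalized. The alternatives were other pseudocounts (0.1 and 5), other filters (none, or a mean of at least 50), 3 other scalings, limma without trend, a replicate block, edgeR 4.0.16 and DESeq2 1.42.0 on the recovered reads, and leaving out each library. Ratios were tested with exact two-sided permutation tests over 70 arrangements (Python 3.11.15, numpy 2.4.6). The labels give no batch, and p-values measure the spread between these mice. The scripts were tested on simulated data. The limit on false calls there was set for limma and edgeR only, since DESeq2 was taken to call more false genes at 4 against 4. The members and lists were chosen with earlier results of these data known. All members are named, by role, and of the other lists those that passed, at most 5 by size. Lcn2 and Fgl1 were named after their values were seen. A detail of the strain that both groups share is not reported here.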

Additional observations from a re-analysis of the deposited data

Results flagged for a closer look

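Dixon's criterion at the 95% level was applied to 84 groups of 4 values (the members, the called genes of the other lists and the 4 ratios, in each treatment). It flagged 1 mouse as far from the other 3 in 3 groups. Chance flags about 1 in 20 such groups. F5 in Con-DHT 4 was 7778 normalized read counts, below 9387 to 9688 in the other Con-DHT mice. Serpinf2 in Con-DHT 3 was 12482, above the 9407 to 9767 of the other Con-DHT mice. The Fga to Fgb ratio per length in Con-DHT 4 was 1.64, above 1.56 to 1.57 in the others. Ratios were rounded to 3 digits before this check, and without the rounding this ratio falls short of the criterion.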

How the results depend on the processing

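The 7 called members became 1 with spike-in scaling, 3 with a replicate block, 16 with DESeq2, 1 without Con-Veh 1 and 2, 5 with Mup-free scaling and 2 to 8 when a library was left out. Those lower in Con-DHT numbered 0, 2, 15, 0 and 4 in these settings and 1 to 7 on leaving out a library. F2r was the 1 higher in all of them. Over all genes tested, 645, 700, 1569, 509 and 1289 were called in these settings, and 638 to 897 on leaving out a library. The main fit called 1032. Members lower without overlap numbered 10 with Mup-free scaling and 1 with spike-in scaling. Mup-free scaling set the libraries to an equal total without the Mup (major urinary protein) genes, in place of the size factors. The median of all genes was then 0.090. The Mup genes took only 0.145% to 1.085% of reads on genes, and the parts of the 2 changes in this shift were not tested. Both overlap counts were added after seeing the data. Of the other haemostasis genes, DESeq2 called 5 higher and 3 lower, spike-in scaling and the comparison without Con-Veh 1 and 2 called 1 lower each, and leaving out a library gave 1 to 3 higher and 0 to 2 lower. Of the acute phase genes, those called lower numbered 0 with this Mup-free scaling, 6 with spike-in scaling, 0 with the replicate block, 2 with edgeR, 6 with DESeq2, 0 without Con-Veh 1 and 2, and 0 to 2 when a library was left out. On leaving out a library, the log2 ratio differences ran from -0.138 to -0.096 (Fga/Fgb), -0.025 to 0.004 (Fga/Fgg), 0.077 to 0.113 (Fgb/Fgg) and -0.210 to -0.102 (Kng1/Kng2), and 3 of them passed only without Con-Veh 3. The cause of these changes was not tested.

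The same replicate numbers in both groups did not pair the mice (correlations of deviations -0.186 to -0.00596, and no library correlated best with its own number), so the block shares only a number. Of 759 values of single genes under alternatives, 658 kept direction and call, 67 lost the call, 15 gained it and 19 changed direction, none in a called gene. Spike-in scaling moved the median of all genes from -0.008 to 0.196, and with this common shift the log2 fold changes were 0.10 for F8, 0.08 for F9, 0.06 for F13b, 0.02 for Proc, 0.08 for Proz, 0.02 for Serpind1, 0.19 for Tfpi, 0.02 for Thbd and 0.09 for Vwf. Tfpi was 0.08 with Mup-free scaling, and Klkb1 was -0.01 without Con-Veh 1 and 2. Leaving out a library gave -0.08 to 0.32 for F11, -0.18 to 0.11 for Tfpi, -0.05 to 0.08 for Klkb1 and -0.33 to 0.02 for Thbd. Of the 10 highest members per length, 9 were among the 10 highest without division by length and 9 with all exons joined. Depth limits Plat most, and 4 mice per group limit the small differences.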

Other observations

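Fgl1, a fibrinogen-related protein secreted by hepatocytes, was named after its values were seen. It had 28807, 26985, 8151 and 7939 normalized read counts in Con-Veh and 3031, 3413, 10740 and 4990 in Con-DHT. Con-Veh 1 and 2 were the highest, as for the fibrinogen chains, and Con-DHT 3 lay above Con-Veh 3 and 4. The log2 fold change was -1.63 (SE 0.51, limma adjusted P value = 0.087), which did not pass.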
